A study of Mus musculus with 6 samples.

Results

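The genes described here supply long-chain fatty acids to a cell: the secreted lipase Lpl, the membrane transporters Slc27a1 and Slc27a4, the cytosolic carriers Fabp3, Fabp4 and Fabp5, and the acyl-CoA synthetases Acsl1, Acsl3, Acsl4 and Acsl5. These 10 genes are classical carriers and synthetases linked to the PPAR nuclear receptors, and each was represented by the brightest array row (probe set) that lists its symbol alone. Such a row existed for 8 of the 10 among 22180 genes on the array. No row listed Acsl1, and the single row that listed Acsl3 listed a second gene as well, so neither has a value here. All 8 genes with a row passed the filter on level and were tested.

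The data are 6 whole-transcript arrays of BV2 cells, a transformed mouse microglial line labelled wild type, in 2 groups of 3. One group received telmisartan and LPS (Tel+LPS), and the other received telmisartan, GW9662 and LPS (Tel+GW+LPS). The drugs were present for 2 h before LPS was added for 1 h, and doses are not stated in the labels. Telmisartan blocks the angiotensin II type 1 receptor and partly activates PPARG, GW9662 binds covalently to PPARG and blocks it, and LPS, a component of the outer membrane of Gram-negative bacteria, triggers TLR4. Because both groups carry telmisartan and LPS, the comparison shows only what adding GW9662 did, and the effect of telmisartan or of LPS was not measured. Sample labels call the samples of a group independent without naming separate cultures, so p-values rest on the spread among these samples, part of which may be technical.

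Fatty acids reach a cell partly inside lipoproteins. Lipoprotein lipase frees them from triglycerides outside the cell, transporters of the Slc27a family (FATP proteins) help to bring them in, FABP proteins carry them through the cytosol, and ACSL enzymes join them to coenzyme A, the form that enters oxidation, droplet storage or phospholipids. PPARs bind DNA as dimers with RXR and switch on many of these genes in fat and muscle, where fatty acids themselves serve as ligands. Macrophages and microglia use the same genes to take up lipid from debris, and Lpl and Fabp5 are often high in microglia that handle myelin or lipid.

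With GW9662, 0 of the 8 genes passed the threshold of 0.05 on limma's Benjamini-Hochberg adjusted p, beside 5 of all 12212 genes tested, or 0.0409%. At an unadjusted p under 0.05 there was 1 of the 8, Fabp4, and 4.45% of all genes. Differences are given throughout as the log2 level with GW9662 minus the log2 level without it. They ran from -0.26 for Fabp4 to 0.16 for Slc27a4, with a median of 0.02 over the 8 genes and of -0.02 over all genes tested, and 5 of the 8 were positive. The 95% intervals of single genes, which are not adjusted for the number of genes, spanned levels with GW9662 from 0.722 times (the lower bound for Fabp4) to 1.30 times (the upper bound for Slc27a4) those without it. These bounds belong to the test reported, and other fits gave wider or narrower ones. With no moderation of the spread the intervals reached log2 differences of -0.54 for Fabp4 and 0.46 for Slc27a4.

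**Figure D1:**
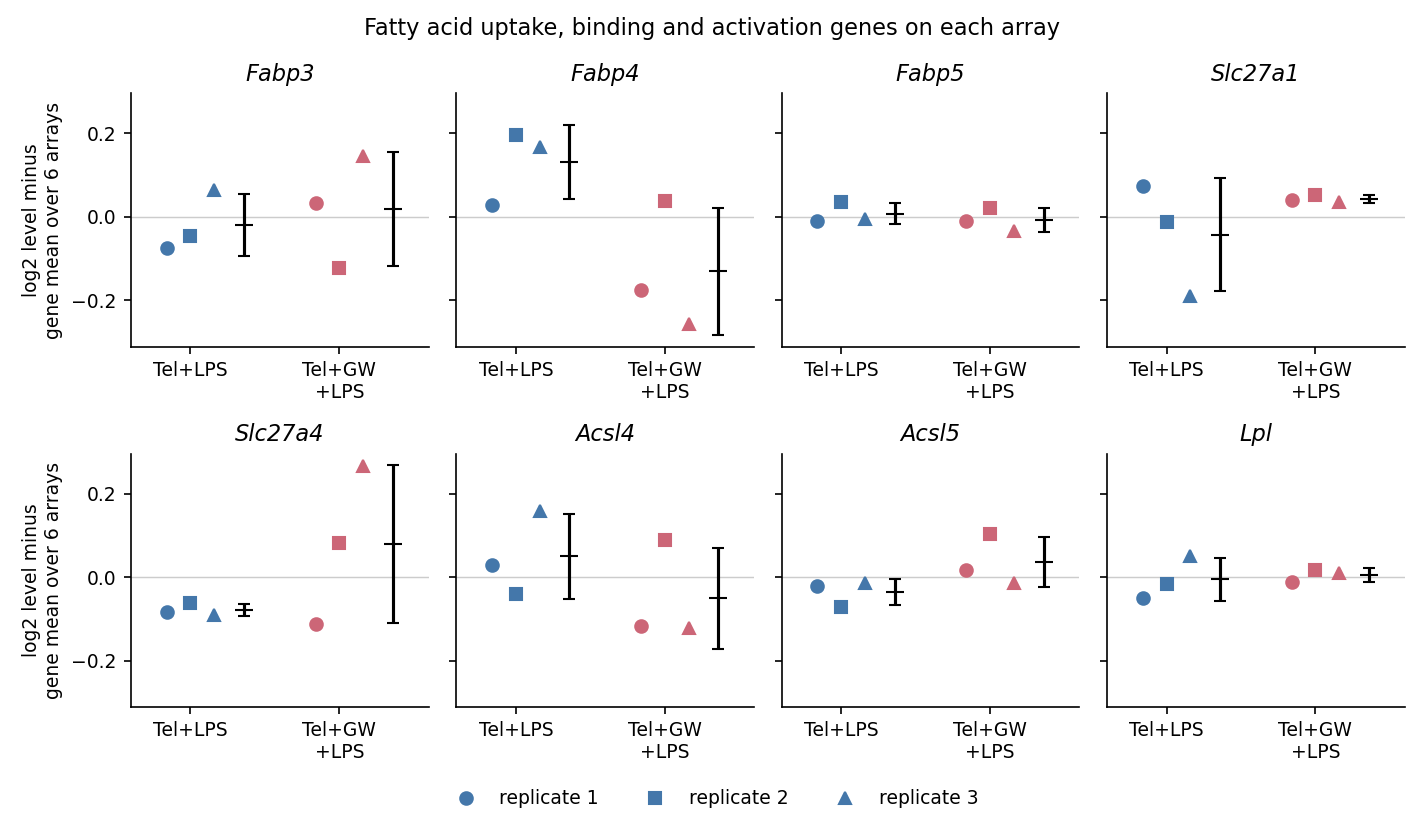
Each panel shows 1 gene, with the log2 level on each array minus that gene's mean over the 6 arrays on the vertical axis, arrays with telmisartan and LPS in blue, arrays that also received GW9662 in red, and the marker shape giving the replicate number. Black bars are group means ± SD (n = 3). Fabp4 shows the widest shift between groups, -0.26, and Acsl5 is the single gene whose groups do not overlap.

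Lpl encodes lipoprotein lipase, which is secreted and releases fatty acids from circulating or extracellular triglyceride. Its log2 level was 12.51, 12.54 and 12.61 on the 3 arrays without GW9662 and 12.54, 12.57 and 12.57 on the 3 arrays with it. The 3 arrays with the antagonist lay inside the range of those without. The difference was 0.01 ± 0.06 (SE), with a 95% interval of -0.13 to 0.15 (limma adjusted p = 0.999). A second, dimmer Lpl row (probe set 17509775) went from 7.86 ± 0.12 to 7.94 ± 0.14 (SD, n = 3 in each group), and its groups overlapped too. Without Tel+LPS replicate 1 the difference of Lpl was -0.01, so it has no settled sign.

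Of the transporters, Slc27a1 (FATP1) promotes uptake of long-chain fatty acids in muscle and fat and Slc27a4 (FATP4) does so in gut and skin, and both also have acyl-CoA synthetase activity. Slc27a1 was at 10.39, 10.30 and 10.13 without GW9662 and at 10.36, 10.37 and 10.35 with it. The treated arrays lay close together, with an SD of 0.0094 against 0.13 in the other group, and within the range of that group. Its difference was 0.09 ± 0.08, with an interval of -0.10 to 0.27 (limma adjusted p = 0.994). Tel+LPS replicate 3, the lowest value, carried most of it, and without that array the difference of Slc27a1 was 0.01.

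Slc27a4 had the opposite pattern of spread. It was at 7.96, 7.98 and 7.95 without GW9662 and at 7.93, 8.12 and 8.30 with it, so that 2 of the 3 treated arrays were above all of the other group and 1 was below. The difference of 0.16 ± 0.10 had an interval of -0.06 to 0.38 (limma adjusted p = 0.994). It was 0.25 without Tel+GW+LPS replicate 1 and 0.06 without Tel+GW+LPS replicate 3. Neither transporter therefore showed a difference beyond the spread of its arrays.

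Among the cytosolic carriers, Fabp4, the adipocyte and macrophage carrier that is a textbook target of PPARG, was at 9.83, 10.00 and 9.97 without GW9662 and at 9.63, 9.84 and 9.55 with it. On 2 of the 3 arrays with the antagonist Fabp4 was below every array without it, and replicate 2 exceeded the lowest array of the other group by 0.0096, so the groups overlapped by that margin. The group means were 9.93 ± 0.09 and 9.67 ± 0.15 (SD, n = 3), and the level with GW9662 was 0.835 times that without it. The difference of -0.26 ± 0.09 had an interval of -0.47 to -0.05 that excluded 0, but Fabp4 did not pass (limma adjusted p = 0.989). By the size of its p it stood at rank 253 of 12212 genes.

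The Fabp4 difference kept its sign in all 17 alternative fits, but these reuse the same arrays and are not independent support. Changing only the level filter, the moderation of the spread or the replicate block cannot move a difference of group means, which stayed at -0.26. Averaging the rows of a gene could not move the Fabp4 difference either, as this gene has a single row. Leaving out 1 array moved it between -0.35 and -0.20, and the fit without the 2 arrays that stood apart from the rest (Tel+LPS replicate 3 and Tel+GW+LPS replicate 2) gave -0.33 at an adjusted p of 0.538. Its 95% interval included 0 with no moderation of the spread and without any one of Tel+LPS replicate 2, Tel+LPS replicate 3, Tel+GW+LPS replicate 1 and Tel+GW+LPS replicate 3. The smallest adjusted p for Fabp4 in these fits was 0.199, with array weights. That fit gave Tel+LPS replicate 1 a weight of 5.74, against 0.37 to 1.37 for the other arrays. There 16.5% of all genes had an unadjusted p under 0.05.

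Fabp3, the heart and muscle carrier, and Fabp5, the epidermal carrier that is also used by macrophages, had smaller differences. Fabp3 was at 10.55, 10.58 and 10.69 without GW9662 and at 10.65, 10.50 and 10.77 with it. The treated arrays held both the highest and the lowest value, and the difference was 0.04 ± 0.08, with an interval of -0.16 to 0.23 (limma adjusted p = 0.994). Its sign turned to -0.03 without Tel+GW+LPS replicate 3, and it was 0.11 without Tel+GW+LPS replicate 2. A second Fabp3 row was dim, at 5.62 and 5.63 in the groups without and with GW9662.

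Fabp5 was at 10.60, 10.65 and 10.61 without GW9662 and at 10.60, 10.64 and 10.58 with it. Its difference was -0.01 ± 0.06, and its interval of -0.15 to 0.12 was the narrowest of the 8 (limma adjusted p = 0.999). There were 4 rows for Fabp5 on the array, and they differed by -0.01, -0.01, -0.07 and 0.03. RefSeq lists a pseudogene of Fabp5, so which copy each row measured is uncertain. The sign of the Fabp5 difference depended on scaling, as centring each array on its median gave 8.33e-06 and repeating the quantile normalization gave 0.02.

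**Figure D2:**
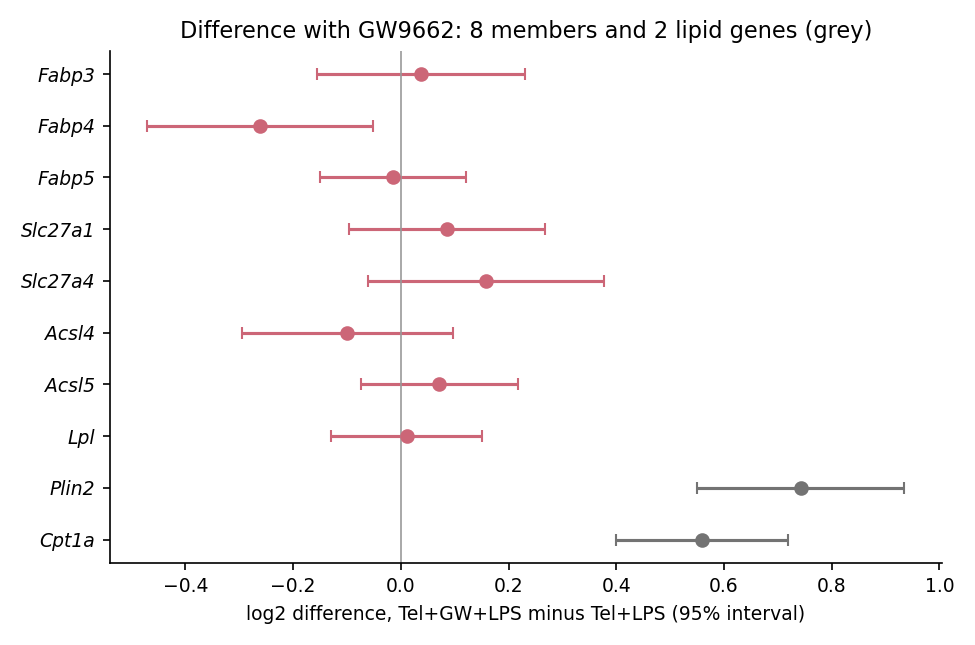
The log2 difference, with GW9662 minus without, is on the horizontal axis for the 8 genes (red) and for 2 other lipid genes, Plin2 and Cpt1a (grey), with bars giving each gene's 95% interval from limma. Of the 8 red intervals only that of Fabp4, -0.47 to -0.05, excludes 0, while Plin2 and Cpt1a lie at 0.74 and 0.56.

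Among the synthetases, Acsl4 prefers arachidonic acid and other polyunsaturated fatty acids and steers them into phospholipids. It was at 11.49, 11.42 and 11.62 without GW9662 and at 11.34, 11.55 and 11.34 with it. The 2 highest values came from the arrays that stood apart over all genes, 1 in each group. The difference was -0.10 ± 0.09, with an interval of -0.30 to 0.10 (limma adjusted p = 0.994), and it was -0.11 without those 2 arrays. It was -0.17 without Tel+GW+LPS replicate 2 and -0.04 without Tel+LPS replicate 3.

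Acsl5, which sits on the endoplasmic reticulum and outer mitochondrial membrane and feeds fatty acids into triglyceride, was at 10.66, 10.61 and 10.66 without GW9662 and at 10.70, 10.78 and 10.66 with it. It was the only one of the 8 whose groups did not overlap, by a gap of 0.00040 on the log2 scale, where 9.37% of all genes tested were without overlap and 4.01% were so upward. The difference was 0.07 ± 0.06, with an interval of -0.07 to 0.22 (limma adjusted p = 0.994). Leaving out Tel+GW+LPS replicate 2 lowered it to 0.04.

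**Figure D3:**
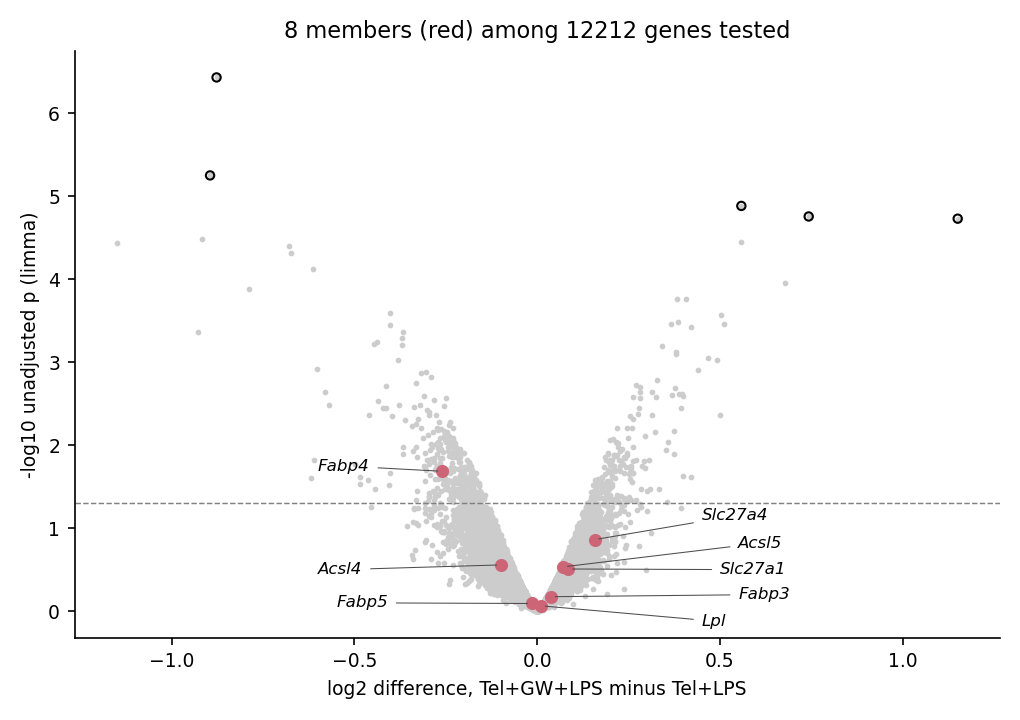
Each of the 12212 genes tested is a grey point, with the log2 difference (with GW9662 minus without) on the horizontal axis and the negative log10 of the unadjusted limma p on the vertical axis. The 8 genes are red, the dashed line marks the unadjusted threshold of 0.05, and the 5 genes past the adjusted threshold are ringed. None of the 8 is ringed, and Fabp4 alone lies above the dashed line.

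The promoter of Acsl5 is shown because it was the only one of the 8 genes without overlap between groups, beside that of Plin2, the one lipid gene in the lists below that passed the test. Both are the 250 bases before the annotated RefSeq start (build GRCm38.p6), 5′ to 3′ on the strand of the gene, at chr19:55253119-55253368 on the plus strand for Acsl5 and chr4:86670060-86670309 on the minus strand for Plin2. Capitals mark a match, on either strand, to the half-site AGGTCA that PPAR and RXR bind, to its direct repeat with 1 base between the copies and at most 2 mismatches in all, or to TGACNNNGC, the core bound by NRF2. The Acsl5 stretch holds no match and so no capitals.
Acsl5: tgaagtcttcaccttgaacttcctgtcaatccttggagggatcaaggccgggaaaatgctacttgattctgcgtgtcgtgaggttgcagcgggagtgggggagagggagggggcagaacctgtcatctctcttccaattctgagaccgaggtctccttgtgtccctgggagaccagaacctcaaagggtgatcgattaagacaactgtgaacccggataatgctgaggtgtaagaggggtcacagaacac
Plin2: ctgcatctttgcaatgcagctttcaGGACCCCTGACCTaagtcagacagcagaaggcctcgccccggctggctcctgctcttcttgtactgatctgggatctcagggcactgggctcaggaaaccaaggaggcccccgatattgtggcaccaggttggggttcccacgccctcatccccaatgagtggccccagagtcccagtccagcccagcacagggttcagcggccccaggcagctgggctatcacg

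The search covered windows from 250 bases before to 50 bases after each start, on both strands, and a repeat that holds an exact copy also counts as a half-site. Windows were at hand for 7 of the 10 genes, all but Fabp4, Fabp5 and Lpl. The half-site was in the windows of 0 of these 7 genes, and 18.1% of all genes with a window held it. The repeat with at most 2 mismatches (4.40% of all genes) and the NRF2 core (14.0%) were also in 0 of the 7. The Plin2 window held the half-site inside 1 imperfect repeat, and the Cpt1a window held the half-site alone. These are matches of letters and say nothing about binding, here or farther from the start.

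Genes with tasks related to those of the 8, not all of them on long-chain fatty acids, were followed through lists. Of the other fatty acid and retinoid carriers, 10 had a row and 9 were below the level filter of 6.15, the median of all rows. This included Fabp7, the brain carrier of astrocytes and radial glia, at 4.74 ± 0.10 and 4.75 ± 0.05 in the groups without and with GW9662. The single one tested, the retinol carrier gene Rbp4, differed by -0.01 ± 0.09.

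Of 10 other uptake genes, 3 were tested, none passed (limma adjusted p from 0.994 to 0.999) and 0 had an unadjusted p under 0.05. Cd36, the scavenger receptor that is the main fatty acid uptake receptor of macrophages and a known PPARG target, was at 9.27, 9.17 and 9.52 without GW9662 and at 9.13, 9.57 and 9.18 with it. As for Acsl4, the highest value in each group came from the array that stood apart. Cd36 differed by -0.03 ± 0.13, with an interval of -0.33 to 0.28, and the sign turned in 3 of the 6 fits that left out 1 array. The scavenger receptor gene Msr1 differed by -0.19 ± 0.11 and Got2, whose protein is an aspartate aminotransferase also found at the cell surface as a fatty acid binder, by 0.09 ± 0.07. Without Tel+LPS replicate 3 these were -0.08 for Msr1 and 0.05 for Got2.

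The other acyl-CoA synthetases had differences of both signs. Of 11 with a row, 5 were tested, 0 passed and 2 had an unadjusted p under 0.05, beside 4.45% of all genes. Of the 5, 4 were positive, and their median was 0.12 beside -0.02 for all genes. Acsbg1, a synthetase for long and very long chains, was at 7.56, 7.52 and 7.35 without GW9662 and at 7.80, 7.68 and 7.70 with it. All 3 treated arrays were above the other group, and the difference was 0.25 ± 0.08 (limma adjusted p = 0.949). Aacs, which activates the ketone body acetoacetate, and Acsf3, a mitochondrial malonyl-CoA synthetase, differed by 0.17 ± 0.07 and 0.12 ± 0.06 (limma adjusted p = 0.994 for both), also without overlap between groups. Groups without overlap upward were thus seen for 3 of the 5 tested genes, against 4.01% of all genes. None of the 3 passed the test. The other 2 tested genes, Acsl6 at 0.10 ± 0.10 and Acss2 at -0.11 ± 0.07, had overlapping groups. The list is short and was chosen with earlier results of these data known, so these shares are a description and not a test. Among the 6 synthetase genes below the level filter, Acsf2, named after its values were seen, was without overlap in the other direction, at 5.40 ± 0.05 without GW9662 and 5.17 ± 0.05 with it.

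Acyl-CoA binding proteins and thioesterases, which hold or cleave the product of these enzymes, gave 14 tested genes, 0 past the threshold, 0 at an unadjusted p under 0.05 and a median of -0.03. The smallest p belonged to the binding protein gene Acbd4, at -0.16 ± 0.08, the thioesterase gene Acot4, at -0.13 ± 0.09, and Acbd5, a peroxisomal anchor that binds very long chains, at -0.20 ± 0.15 (limma adjusted p = 0.994 for all 3). With 1 array left out Acbd5 ranged from -0.35 (without Tel+GW+LPS replicate 2) to -0.07 (without Tel+LPS replicate 3), and Acot4 from -0.20 (without Tel+LPS replicate 1) to -0.07 (without Tel+LPS replicate 2).

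Around Lpl, 13 genes of its maturation, cofactors, sister lipases and lipoprotein receptors were tested. Of these, 0 passed and 2 had an unadjusted p under 0.05. Lipg, the gene of endothelial lipase, a relative of Lpl that acts mainly on phospholipids, was at 9.61, 9.81 and 9.76 without GW9662 and at 9.17, 9.47 and 9.31 with it. All 3 treated arrays were lower than the other group, a separation seen downward in 5.36% of all genes, and the difference was -0.41 ± 0.09, with an interval of -0.63 to -0.20 (limma adjusted p = 0.547). Lpl itself, on the same arrays, differed by 0.01. Lrp8, a receptor for apolipoprotein E, differed by 0.21 ± 0.07 (limma adjusted p = 0.949) with no overlap between groups, and Apoe by 0.11 ± 0.07 (0.07 without Tel+GW+LPS replicate 3). Angptl4, a secreted inhibitor of Lpl and a strong PPAR target in many cells, was dim, at 5.15 ± 0.18 and 5.10 ± 0.17.

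**Figure D4:**
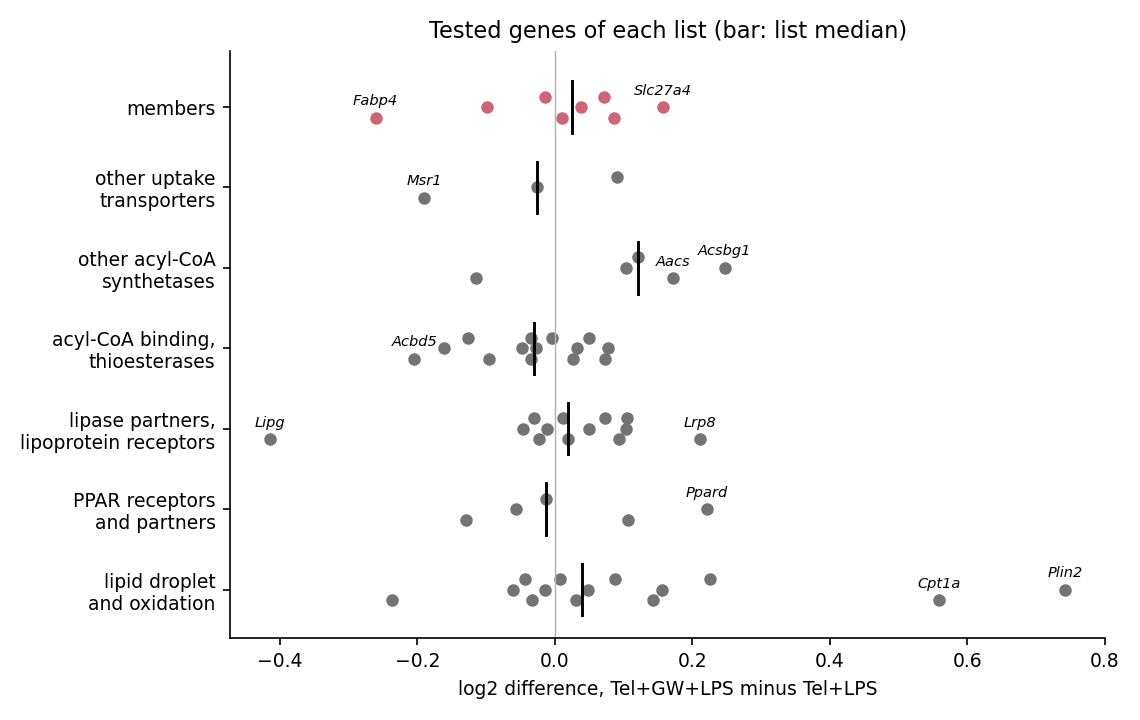
Every tested gene of 7 lists is a point on the log2 difference, with GW9662 minus without, on the horizontal axis, and black bars mark list medians. The 8 genes (red) have a median of 0.02, and the points farthest from 0 in the other lists are Lipg at -0.41, Cpt1a at 0.56 and Plin2 at 0.74.

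The receptors themselves were followed too. Pparg, the target of GW9662, was below the level filter at 5.39, 5.45 and 5.64 without GW9662 and 5.56, 5.32 and 5.45 with it, and Ppara was at 5.31 ± 0.09 and 5.38 ± 0.14, so neither was tested. Ppard, the broadly expressed member of the family, was at 8.79, 8.60 and 8.55 without GW9662 and at 8.93, 8.73 and 8.95 with it, overlapping on 1 array. Its difference was 0.22 ± 0.09 (limma adjusted p = 0.994). The partner gene Rxra differed by 0.11 ± 0.07 (0.06 without Tel+GW+LPS replicate 2) and the coactivator gene Ppargc1b by -0.13 ± 0.07, neither past the threshold.

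Downstream of these steps, 14 genes of lipid storage and oxidation were tested and 1 of them passed. Plin2, whose protein coats lipid droplets, was at 9.81, 10.03 and 9.80 without GW9662 and at 10.55, 10.60 and 10.71 with it (0.74, limma adjusted p = 0.0453). The call of Plin2 was lost in each fit that left out 1 array (adjusted p from 0.0718 to 0.271), although the difference there was 0.70 to 0.82. Cpt1a, the gate for fatty acids into mitochondria, differed by 0.56 (limma adjusted p = 0.0531), with all 3 treated arrays above the other group. Plin2 and Cpt1a lay farthest from 0 among the 14, whose median difference was 0.04, beside 0.02 for the 8 genes. The interval lower bounds of these 2 genes, 0.55 and 0.40, were above the highest upper bound among the 8, 0.38 for Slc27a4. Both genes were chosen with earlier results of these data known, so this contrast is a description and not a test.

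For Fabp4 and Lpl the genes with the most similar pattern were sought, by the distance between log2 levels centred on each gene's mean (the root of the summed squares over 6 arrays). Rnf149, Lacc1 and H4c9 were nearest to Fabp4, at 0.104 to 0.137, and differed by -0.24, -0.25 and -0.21. Cdc25c, Psmb7 and Phf7 were nearest to Lpl, at 0.0258 to 0.0393, and differed by -0.0011, -0.02 and 0.0058. The distance includes the shift between groups, so similar differences follow from the way these genes were picked. Shared regulation was not tested. H4c9 is a histone gene with near-identical copies, so its own share of the signal is uncertain.

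The label of the cells was checked against markers. All 11 microglia and macrophage markers with a row were above the level filter. Mean levels over the list were 10.4 to 10.6 on the arrays without GW9662 and 10.5 on those with it. Itgam was at 10.82 without and 10.75 with GW9662, and Csf1r at 11.15 and 11.11. Cx3cr1 was only at 6.97 and 7.07, and Aif1 only at 6.96 and 6.76. Fabp4 is also a marker of adipocytes and endothelium and Fabp3 of muscle. Of the markers with a row, 3 of 5 for adipocytes, 4 of 7 for endothelium and 3 of 6 for muscle were above the filter, and the brightest of these, Tnnt2, was at 7.14 and 7.17. Mean levels of the adipocyte list were 5.76 to 5.84 without and 5.67 to 5.84 with GW9662, those of the endothelial list 5.70 to 5.85 and 5.66 to 5.85, and those of the muscle list 5.98 to 6.13 and 5.96 to 6.11, overlapping in each case. Single markers moved both ways without overlap between groups, a separation seen in 9.37% of all genes tested. The microglia marker Aif1 (-0.20) and the endothelial marker Pecam1, at 6.47 without and 6.29 with GW9662 (-0.18), moved in the direction of Fabp4. The adipocyte marker Cidec, at 6.13 and 6.28 (0.15), moved the other way. None of these passed the threshold (limma adjusted p = 0.994 for each). Pecam1 and Cidec both lay near the level filter of 6.15. Adipoq (4.69 and 4.62), Tek (4.62 and 4.51) and Myh7 (4.65 and 4.63) were below the filter, while Plin1, Cdh5, Kdr and Vwf were above it, and RMA values have no true zero. The samples are labelled BV2, a cell line, so other cell types are not part of the design. Their part in the Fabp4 difference was not tested. Over all genes tested the 6 arrays correlated at 0.990 to 0.996, and Tel+LPS replicate 3 and Tel+GW+LPS replicate 2 had scores of 14.6 and 7.55 on the first principal component, against -8.15 to -0.98 for the other 4. In bulk RNA, fewer cells that express a gene and less RNA per cell cannot be told apart.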

How the data were processed

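RNA from 6 samples was hybridised to Affymetrix mouse gene arrays, 3 in each group, with group and replicate taken from the sample titles. The authors deposited log2 values that, per the submitters' processing notes, come from RMA run in Expression Console. Affymetrix Power Tools 1.4.1.46 corrected background, quantile-normalized the arrays together and summarised each probe set by median polish, per the file headers. A shift of most transcripts in one direction would thus be hidden. Headers name the second-generation gene array, the labelling protocol an earlier one.

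Of 41345 probe sets, 23521 carried 1 symbol in the platform annotation, 1820 several and 16004 none listed. The brightest probe set stood for each of 22180 genes, and the 12212 with a mean of at least 6.15 were tested with limma 3.58.1 in R 4.3.3 (lmFit, eBayes, group only), with Benjamini-Hochberg adjustment over all of them. On simulated data for this comparison (12212 genes), 99% of 100 genes shifted by 1 and 86% of 100 shifted by 0.5 were recovered. False calls numbered 10. The real data held far fewer calls, 5, so the adjusted cutoff was stricter there and these shares do not carry over. In the real data Cpt1a, at 0.56, did not pass (limma adjusted p = 0.0531). The number of arrays limits precision. Members, lists and tests were chosen with earlier results of these data known. Named were all members, genes past the threshold or the 3 smallest p per list, Plin2, Cpt1a, Cd36 and the PPAR genes. Also named were 3 pattern neighbours each for Fabp4 and Lpl, and up to 4 markers per list. Fabp7, Angptl4, Acsf2, Acsl6, Acss2, Vwf and Tnnt2 were added after their values were seen. Promoters are from RefSeq. Alternatives covered level filter, probe set choice, deposited table, scaling, weights, prior, replicate block and left-out arrays.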

Additional observations from a re-analysis of the deposited data

How the results depend on the processing

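None of the 8 genes passed the threshold in any of the 17 alternative fits, and their median difference stayed between -0.00096 and 0.05. The number of all genes past it, 5 in the test reported, was 1 with no level filter, 9 with a higher level filter of 7.27, 10 with arrays centred on their medians or quantile-normalized again, 49 with array weights, 13 with an intensity trend in the prior, 0 with no moderation of the spread (610 genes at an unadjusted p under 0.05), 0 to 2 with 1 array left out and 0 without both arrays that stood apart (944 at an unadjusted p under 0.05). With the replicate number as a block it was 0 (379 at an unadjusted p under 0.05). With array weights 2013 genes had an unadjusted p under 0.05, and Tel+LPS replicate 1 weighed 5.74, against 0.37 to 1.37 for the others. Same-numbered arrays deviated from their group means with correlations of 0.29, -0.45 and -0.12 for replicates 1, 2 and 3. With 3 arrays a group these cannot show whether equal numbers mark paired samples, and the labels do not say. Signs turned for genes near 0: Fabp5 to 8.33e-06 with centred arrays and 0.0204 with repeated quantile normalization, Slc27a1 to -0.0109 with array weights, and Rbp4 to 0.0094, 0.0148 and 0.0122 in these 3 fits. With 1 array left out, Lpl ranged from -0.0108 to 0.0386, Fabp3 from -0.0265 to 0.108, Cd36 from -0.166 to 0.0705 and Rbp4 from -0.0633 to 0.0643. The cause of these shifts was not tested. Cpt1a passed in 5 fits, those with the higher filter, both rescalings, array weights and the trend (adjusted p from 0.00502 to 0.0366). The call of Plin2 was lost with no level filter (adjusted p = 0.126), no moderation (0.544), the block (0.166) and without both arrays that stood apart (0.258). With 3 arrays a group, log2 differences of the 8 genes under about the half-widths of their unadjusted intervals, 0.14 to 0.22, could not be told from 0. Larger differences were needed to pass the adjusted test. In the test reported, Lipg at -0.41 (limma adjusted p = 0.547) and Cpt1a at 0.56 (limma adjusted p = 0.0531) did not pass.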
